A study of Arabidopsis thaliana with 9 samples.

Results

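Leaves remove the reactive oxygen that follows injury with a small set of enzymes, and 10 Arabidopsis genes for such enzymes and for the synthesis of their substrates ascorbate and glutathione were followed through the first 60 min after wounding. The members were listed by gene identifier, with no threshold on their values, though with earlier results of these data known: the superoxide dismutases CSD1 (AT1G08830) and CSD2 (AT2G28190), the catalases CAT1 (AT1G20630), CAT2 (AT4G35090) and CAT3 (AT1G20620), the ascorbate peroxidases APX1 (AT1G07890) and APX2 (AT3G09640), the dehydroascorbate reductase DHAR1 (AT1G19570), and the synthesis genes VTC2 (AT4G26850) and GSH1 (AT4G23100). They make up 10 of the 27206 genes in the count table.

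Polyadenylated leaf RNA of wild-type Arabidopsis thaliana (ecotype Col-0) was sequenced, with 3 biological replicates before wounding, 3 taken 30 min after wounding and 3 taken 60 min after it. All plants were soil-grown under short days with a warmer day than night. The labels give neither the age of the plants nor how many leaves or plants made up a replicate. They name no intact leaves at 30 or 60 min and no hour of harvest, so wounding and the time of day cannot be told apart in any difference below.

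Superoxide dismutases turn superoxide into hydrogen peroxide. Catalases break hydrogen peroxide down in peroxisomes, where photorespiration makes much of it, while ascorbate peroxidases reduce it in the cytosol, chloroplasts and other compartments with ascorbate as the electron donor. Oxidised ascorbate is brought back by monodehydroascorbate reductases and dehydroascorbate reductases. Dehydroascorbate reductases spend glutathione, which glutathione reductase restores. New ascorbate comes mainly from GDP-mannose by way of L-galactose in plants, and new glutathione from cysteine, glutamate and glycine.

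Libraries held 14300929 to 22970735 counts. The shallowest was 30 min replicate 1, and the other 8 held at least 22072126. Levels are given as CPM, counts scaled to a common library total after correction with trimmed-mean (TMM) factors. Levels of different genes are set side by side as CPM per kb of exon. Marker sums and genes that overlap a member or share sequence with it are the exceptions and stay in CPM. Of the 27206 genes, 17622 passed the filter on low counts and were tested with edgeR, and 28% of them differed between 30 min and before wounding at a Benjamini-Hochberg adjusted p under 0.05 (14.5% higher and 13.4% lower). At 60 min against before wounding the share was 32.4% (17.1% higher and 15.3% lower), while 60 min against 30 min gave 2.02% (0.721% higher and 1.3% lower). Without TMM factors the median of all log2 changes moved to 0.12 for 30 min and 0.28 for 60 min, against 0.02 and 0.06 with them, and the calls at 60 min split into 4208 higher and 1723 lower, against 3016 and 2688. Among 20 markers of leaf and other cell types, 13 were tested. The mesophyll markers summed to between 59646 and 119397 CPM in every library, and the root markers IRT1 and RHD6 were at 0 in all 9.

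Of the 10 members, 9 passed the filter, and 5 of these differed at 30 min from before wounding, against the 28% of all tested genes given above. CAT1, CAT3 and DHAR1 rose, and CAT2 and VTC2 fell. At 60 min 6 of 9 differed from before wounding, against 32.4% of all tested genes: CAT1, CAT3 and DHAR1 higher again, and CAT2, VTC2 and CSD2 lower. The largest changes were a 5.13-fold fall of VTC2 and a 4.08-fold rise of DHAR1 at 30 min, and 4.70-fold and 5.30-fold at 60 min. Between 60 and 30 min no member was called by edgeR or by DESeq2, and 1 member, DHAR1, had an unadjusted p under 0.05. The log2 changes between these times ran from -0.75 in CSD2 to 0.38 in DHAR1. The median log2 change of the 9 tested members was 0.10 at 30 min and 0.19 at 60 min, against 0.02 and 0.06 for all tested genes. CPM of the groups did not overlap in 6 of 9 members at 30 min and 8 of 9 at 60 min, against 43.4% and 47.3% of all tested genes, and overlapped in all 9 between 60 and 30 min, where 16.2% of all tested genes did not overlap. The F test for any difference among the 3 times called 5 of 9 members (VTC2, DHAR1, CAT1, CAT2 and CAT3), against 32.1% of all tested genes. Both comparisons share the libraries from before wounding. The RNA is of whole leaf tissue, in which fewer cells of a type and less RNA per cell cannot be told apart.

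Per kb of exon, the mean levels of the members spanned a wide range. Before wounding CAT2 stood highest at 437 ± 60.3 CPM per kb, followed by APX1 at 253 ± 39.4, VTC2 at 131 ± 2.40 and CAT3 at 115 ± 9.97 (SD, n = 3 each). DHAR1, GSH1, CSD2, CAT1 and CSD1 followed, with means of 40.3, 28.3, 25.9, 18.3 and 6.77, and APX2 was at 0. GSH1 and CSD2 lay closer to each other than the SD of CSD2, 13.1, as did CSD2 and CAT1. At 60 min CAT2, at 230.1 ± 29.6, stood beside DHAR1, at 214 ± 8.96, a gap smaller than the SD of CAT2. APX1 followed at 187 ± 17.2 and CAT3 at 155 ± 8.72, and VTC2, at 27.9 ± 3.16, came below CAT1 and GSH1. The order of the genes was not tested.

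**Figure D1:**
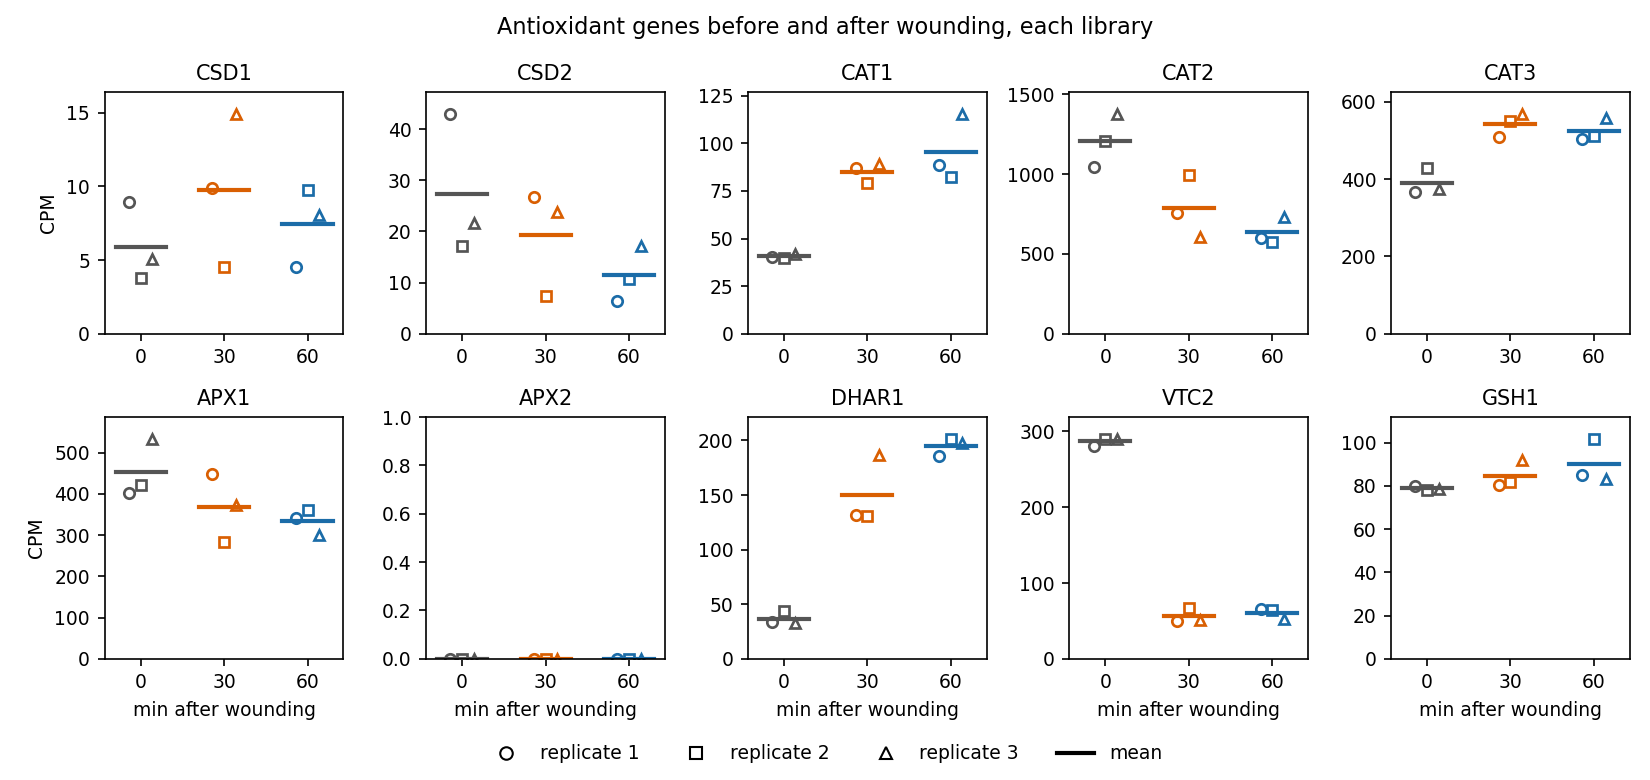
CPM of the 10 genes (vertical axes, each from 0) against min after wounding (horizontal axes), with 1 symbol per library by replicate number and a bar at the mean of 3. VTC2 falls to 49.3 to 67.2 CPM at 30 min against 281 to 290.0 before wounding, DHAR1 reaches 186 to 201 CPM at 60 min against 32.5 to 44.2 before wounding, and APX2 lies at 0 throughout.

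**Figure D2:**
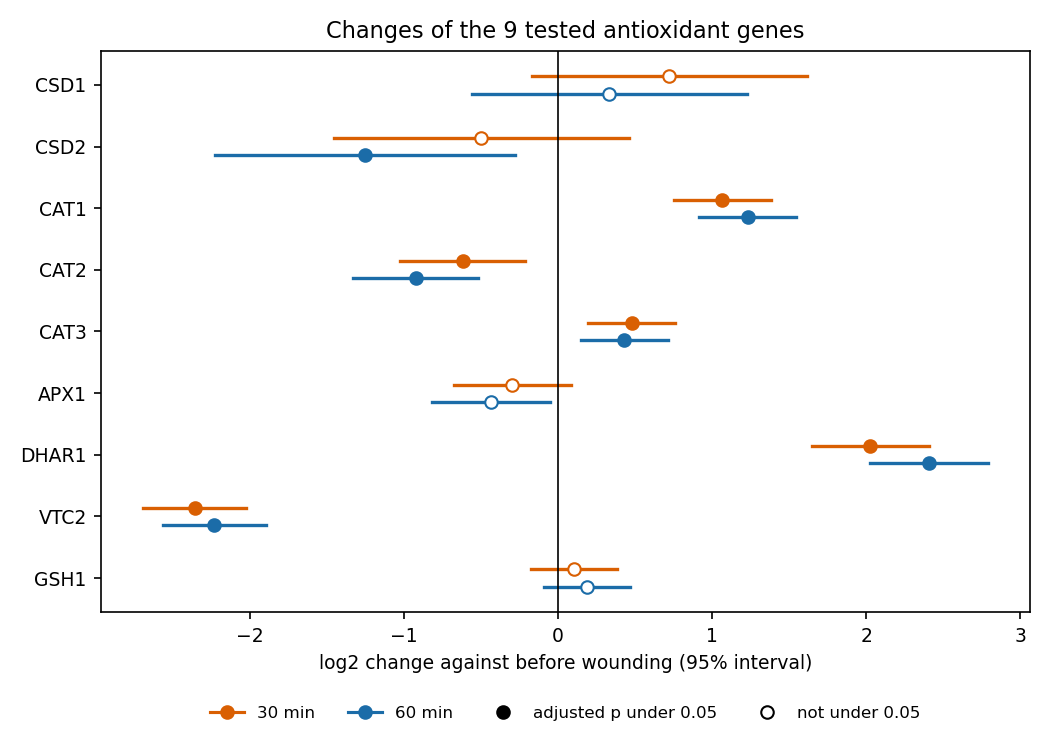
Log2 change of the 9 tested genes (horizontal axis) at 30 min and 60 min, each against before wounding, with the 95% interval as a line and a filled point where the adjusted p was under 0.05. DHAR1 at 2.03 and 2.41 and VTC2 at -2.36 and -2.23 lie farthest from 0, and the intervals of CSD1 and GSH1 span 0 at both times.

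CSD1 and CSD2 encode the cytosolic and the chloroplast copper/zinc superoxide dismutase. In Arabidopsis both messages are known targets of the microRNA miR398, which accumulates when copper is scarce. The mature miR398 of MIR398B and MIR398C and the best ungapped pairing for it in each message are shown because the 2 genes share this regulator. They were read from the TAIR10.1 genome with its RefSeq annotation, on the plus strand; capitals mark the seed (bases 2 to 8) in the microRNA and the Watson-Crick paired bases in the sites.
miR398b and miR398c (chr5:4691107-4691127 and chr5:4694778-4694798): tGTGTTCTcaggtcacccctg
CSD1 (chr1:2827177-2827685, across an intron): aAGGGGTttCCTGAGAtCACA
CSD2 (chr2:12015572-12015592): tgcGGGTGACCTGgGAAacat
The CSD1 stretch lies in the untranslated part of the message and pairs at 17 of 21 bases. The CSD2 stretch lies in the coding sequence and pairs at 13 of 21 bases, with 3 further G:U pairs. Pairing by letters is a description and says nothing about use of the site in these leaves. The microRNA genes themselves were not analysed here.

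CSD1 was a low message. Its CPM in replicates 1, 2 and 3 was 8.90, 3.77 and 5.07 before wounding, 9.89, 4.51 and 14.9 at 30 min, then 4.52, 9.77 and 8.06 at 60 min. Groups overlapped at both times, and replicates within a group spread over more than the means differed. The log2 change was 0.72 at 30 min (95% interval -0.17 to 1.62, edgeR adjusted p = 0.219) and 0.33 at 60 min (-0.56 to 1.22, adjusted p = 0.578). Without 30 min replicate 2, its lowest library at that time, the change at 30 min was 1.06 with an adjusted p of 0.0457. CSD1 overlaps emb2411 on the opposite strand, which averaged 2.91, 2.32 and 2.56 CPM at 0, 30 and 60 min. Whether counting used strand is not given in the sources used here, so reads of the overlap could belong to either gene.

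CSD2 fell at 60 min. Its CPM was 6.46, 10.7 and 17.2 at 60 min, against 43.0, 17.2 and 21.6 before wounding, with 26.8, 7.48 and 23.8 at 30 min. All 60 min libraries lay below all libraries from before wounding, although the highest at 60 min and the lowest before wounding both round to 17.2, while the 30 min libraries overlapped both groups. On the log2 scale the change was -1.25 at 60 min (SE 0.45, 95% interval -2.23 to -0.28, edgeR adjusted p = 0.0480) and -0.50 at 30 min (-1.46 to 0.46, adjusted p = 0.443). The call at 60 min was lost under 9 of 17 alternatives. Without before-wounding replicate 1, the highest library, the change was -0.76 with an adjusted p of 0.237, and the call was also lost on leaving out before-wounding replicate 3 (0.0601), 30 min replicate 1 (0.0574) or 60 min replicate 1 or 2 (0.165 and 0.0883). With all libraries, DESeq2 did not call it (log2 change -1.28, adjusted p = 0.0976), nor did edgeR with library size alone in place of TMM (-1.07, adjusted p = 0.124).

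The other superoxide dismutases put these levels in proportion. Per kb of exon, the iron enzyme FSD1 made up 88.5%, 86.1% and 85.1% of all superoxide dismutase CPM at 0, 30 and 60 min. CSD1 made up 0.518%, 1.12% and 1.01%, and CSD2 1.98%, 1.81% and 1.25%. Of 5 other superoxide dismutase genes tested out of 6, none rose, 1 fell at 30 min and 2 fell at 60 min. The share called was 20% and 40%, against 28% and 32.4% of all tested genes. Their median log2 change was -0.24 and -0.06. FSD3, a chloroplast iron superoxide dismutase, had log2 changes of -1.28 (30 min, adjusted p = 0.000527) and -1.67 (60 min, adjusted p = 5.90e-05), a fall at both times. FSD1 changed by -0.66 at 60 min (adjusted p = 0.00587) and had a log2 change of -0.40 at 30 min (adjusted p = 0.0734). All 30 min libraries of FSD1 lay below those from before wounding. Its 30 min change passed the threshold under 2 of 17 alternatives, with DESeq2 (adjusted p = 0.0368) and with library size alone (0.0357). CSD3, the peroxisomal copper/zinc enzyme, averaged 19.1, 22.3 and 19.3 CPM at 0, 30 and 60 min and was called at neither time.

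CCS, the copper chaperone that loads these enzymes and another miR398 target, was set beside them after its values were seen. Its CPM was 24.9, 16.0 and 15.0 before wounding, 20.9, 6.99 and 26.0 at 30 min, and 17.6, 32.9 and 13.9 at 60 min. In CSD1, CSD2 and CCS alike, before-wounding replicate 1 was the highest of its group and 30 min replicate 2 the lowest of its group. At 60 min the order of the replicates differed between the 3 genes. In CSD3 too, before-wounding replicate 1 was the highest, at 22.9 CPM against 16.7 and 17.7. The lowest CSD3 library at 30 min was again replicate 2, at 18.2 CPM against 19.6 and 29.1. The log2 change of CCS was -0.05 at 30 min (adjusted p = 0.942) and 0.21 at 60 min (adjusted p = 0.732). SPL7, the copper-sensing transcription factor, and COX5B-1, a cytochrome c oxidase subunit, were not called either. Thus none of the 3 tested copper genes was called at any time by edgeR or DESeq2, and none had an unadjusted p under 0.05. Of all tested genes, edgeR called 28% at 30 min and 32.4% at 60 min.

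**Figure D3:**
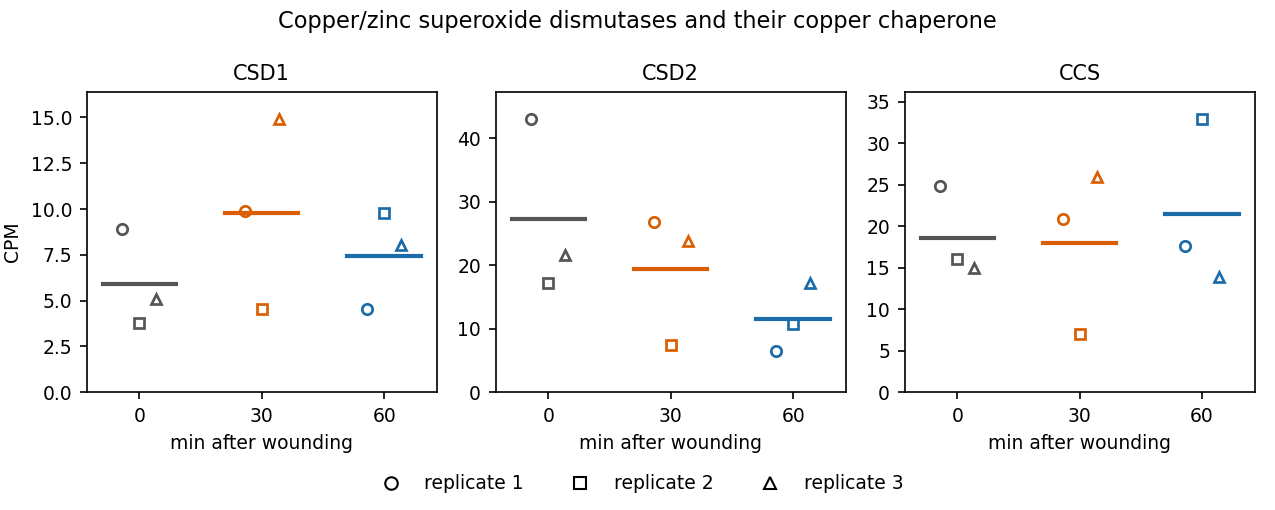
CPM of CSD1, CSD2 and the chaperone CCS (vertical axes, each from 0) against min after wounding, 1 symbol per library by replicate number and a bar at the mean of 3. Before-wounding replicate 1 (circle) is the highest and 30 min replicate 2 (square) the lowest of its group in all 3 panels.

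The 3 catalase genes moved apart. CAT2, the main leaf catalase, acts on photorespiratory peroxide, CAT3 is found mainly around the vascular tissue and in older leaves, and CAT1 is known for its response to abscisic acid and stress. In Arabidopsis CAT2 transcripts peak in the morning and CAT3 transcripts in the evening under control of the circadian clock.

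CAT2 had 759, 996 and 605 CPM at 30 min and 602, 578 and 730.0 CPM at 60 min, against 1044, 1205 and 1378 CPM before wounding. Every library after wounding lay below every library before it. It changed on the log2 scale by -0.62 at 30 min (SE 0.19, 95% interval -1.03 to -0.21, edgeR adjusted p = 0.0253) and -0.93 at 60 min (SE 0.19, -1.33 to -0.52, adjusted p = 0.00219). The fall at 60 min held under 17 of 17 alternatives. Leaving out any 1 of 4 libraries ended the call at 30 min, with an adjusted p of 0.0761 and 0.118 for replicates 2 and 3 from before wounding and of 0.0841 and 0.135 for replicates 1 and 3 at 30 min. CAT2 overlaps AT4G35080, annotated as a high-affinity nickel-transport family protein, on the opposite strand. That gene averaged 16.9 CPM at 30 min and 19.1 CPM at 60 min, against 25.3 CPM before wounding.

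CAT3 had 509.5, 551 and 569 CPM at 30 min and 504, 513 and 559 CPM at 60 min, against 366, 428 and 374 CPM before wounding. Every library after wounding was above every library before it, and the 2 later groups overlapped. The log2 change came to 0.48 at 30 min (SE 0.13, 95% interval 0.20 to 0.76, edgeR adjusted p = 0.0146) and 0.43 at 60 min (0.15 to 0.71, adjusted p = 0.0221). The 30 min call ended when replicate 1 or 3 from before wounding (adjusted p = 0.0545 and 0.0837) or replicate 3 from 30 min (0.0559) was left out. The 60 min call ended when any 1 of the libraries from before wounding (0.0749, 0.0509 and 0.116 for replicates 1, 2 and 3) or replicate 3 from 60 min (0.102) was left out.

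CAT1 had 87.3, 79.0 and 89.3 CPM at 30 min and 88.7, 82.5 and 115 CPM at 60 min, against 40.3, 39.9 and 41.9 CPM before wounding. The libraries from before wounding were nearly equal and lay far under all later ones. The fitted log2 change was 1.07 at 30 min (SE 0.15, 95% interval 0.75 to 1.38, edgeR adjusted p = 0.000125) and 1.23 at 60 min (SE 0.15, 0.92 to 1.55, adjusted p = 3.46e-05), and both rises held under 17 of 17 alternatives. CAT1 and CAT3 lie in tandem on the plus strand of chromosome 1, CAT3 upstream, with 95 bases between them. All of the 50-base stretches in the exons of either gene were unique to it.

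CAT2 was the most abundant catalase at all 3 times. The 3 genes summed to 570.3 ± 62.4 CPM per kb before wounding, 483 ± 67.6 at 30 min and 428 ± 45.8 at 60 min (SD, n = 3 each). CAT2 supplied 76.5% of that sum before wounding, 58.3% at 30 min and 53.7% at 60 min. CAT3 supplied 20.3%, 33.7% and 36.4%, and CAT1 3.23%, 8.07% and 9.97%. In single libraries the CAT2 share was 51.2% to 64.5% at 30 min and 52.5% to 54.9% at 60 min, against 74.9% to 79.4% before wounding, with no overlap between before and after.

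**Figure D4:**
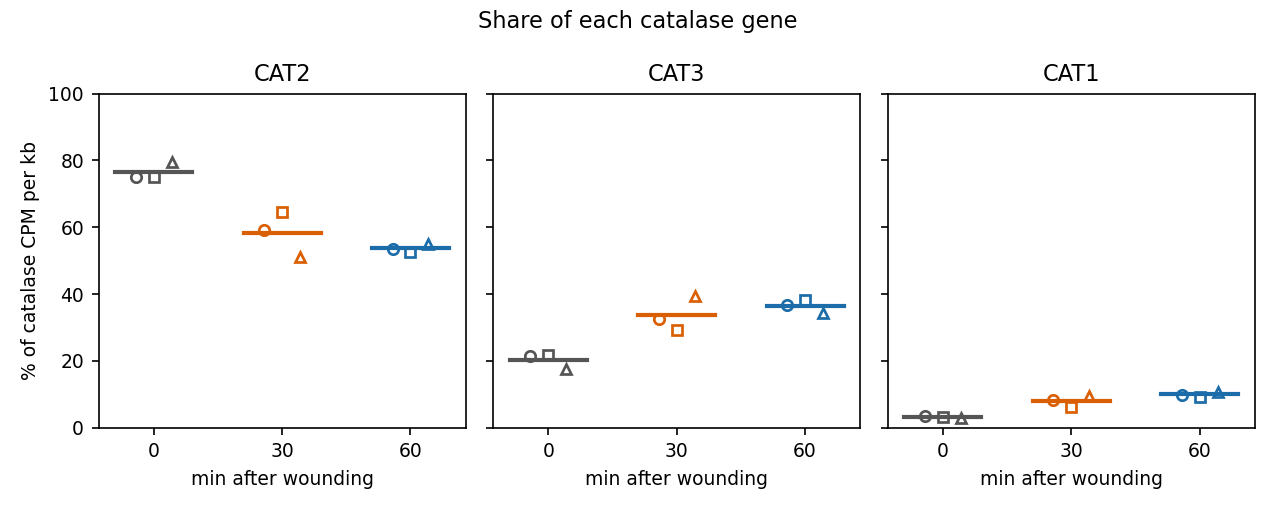
Share of each catalase gene in the summed catalase CPM per kb of exon (vertical axis, percent) against min after wounding, 1 symbol per library and a bar at the mean of 3. The CAT2 share lies between 51.2% and 64.5% after wounding, against 74.9% to 79.4% before, and the shares of CAT3 and CAT1 are higher after wounding in every library.

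The 250 bases before the RefSeq start of CAT2 and of CAT3 are shown because the genes moved in opposite directions. Capitals mark matches, on either strand, to CACGTG (G-box), AAAATATCT (evening element), GAANNTTC (heat shock element), TTGAC (W-box), GTAC (copper response core), TGACG (as-1 core), GCCGCC (GCC-box) or CCGAC (DRE core). The W-box and the as-1 core can share bases.
CAT2 (TAIR10.1 chr4:16703505-16703754, minus strand): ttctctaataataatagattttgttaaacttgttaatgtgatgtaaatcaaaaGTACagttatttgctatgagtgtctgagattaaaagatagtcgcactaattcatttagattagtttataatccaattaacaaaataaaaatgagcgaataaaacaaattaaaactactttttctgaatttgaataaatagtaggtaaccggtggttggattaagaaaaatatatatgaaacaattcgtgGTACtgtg
CAT3 (TAIR10.1 chr1:7142722-7142971, plus strand): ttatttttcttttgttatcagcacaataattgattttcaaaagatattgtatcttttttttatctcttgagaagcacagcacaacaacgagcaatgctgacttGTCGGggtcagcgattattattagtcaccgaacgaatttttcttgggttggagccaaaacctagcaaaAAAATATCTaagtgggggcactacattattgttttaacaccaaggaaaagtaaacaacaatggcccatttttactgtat
CAT3 holds 1 evening element, 79 bases before the start, and 1 DRE core. The evening element is found in 2.4% and the DRE core in 11.9% of 26718 windows of the same length. CAT2 holds GTAC in 2 places, a core found in 34.4% of windows, and none of the other motifs. A match is a string of letters and not a bound site.

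Clock genes differed in the same libraries. CCA1, a morning-phased repressor that is known to bind the evening element, averaged 21.0 ± 0.228 CPM at 30 min and 12.5 ± 3.00 at 60 min, against 87.3 ± 9.46 before wounding (SD, n = 3 each). Its log2 change was -2.06 at 30 min (edgeR adjusted p = 2.04e-06) and -2.80 at 60 min (adjusted p = 2.14e-07). LHY, its close relative, changed by -1.79 and -2.30 (adjusted p = 0.000254 and 3.31e-05), and the evening-phased TOC1 by 1.35 and 0.95 (adjusted p = 0.000258 and 0.00276). Their part in the catalase changes was not tested. Among 7 tested of 9 photorespiratory genes, whose pathway supplies the peroxide that CAT2 removes, none rose, 1 fell at 30 min and 4 fell at 60 min. Their median log2 change was -0.24 and -0.45. Of all tested genes, 14.5% rose and 13.4% fell at 30 min, and 17.1% rose and 15.3% fell at 60 min. The 1 fall at 30 min, 14.3% of the list, is thus near the share of all genes, against 57.1% at 60 min. GLDP1, a subunit of glycine decarboxylase, changed by -0.64 and -0.93 (adjusted p = 0.0178 and 0.00170), with the 30 min call lost on leaving out before-wounding replicate 2 or 3 (0.0878 and 0.0674) or 30 min replicate 1 or 3 (0.0519 and 0.106). GOX2, a glycolate oxidase, changed by -0.56 at 60 min (adjusted p = 0.00735). GOX1, also among the 60 min falls, changed by -0.45 (adjusted p = 0.0320). That call was lost under 9 of 17 alternatives, among them without any 1 before-wounding or 60 min library (adjusted p up to 0.114). The summed mesophyll markers ran from 72314 to 95111 CPM at 30 min and from 59646 to 84912 at 60 min, against 97609 to 119397 before wounding, and 1 of the 3, RBCS1A, fell at 60 min (log2 change -0.62, adjusted p = 0.0467), a call lost under 11 of 17 alternatives, with adjusted p up to 0.167 on leaving out before-wounding replicate 3. RBCS1A carried most of that sum. LHCB1.1 changed by -0.37 and -0.49 (adjusted p = 0.172 and 0.0661), and CA1 by 0.03 and -0.21 (adjusted p = 0.928 and 0.410), with CA1 groups that overlapped at both times. The part of these markers in the fall of CAT2 was not tested.

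APX1 is the main cytosolic ascorbate peroxidase. It had 448, 284 and 374 CPM at 30 min and 342, 360.2 and 300.4 CPM at 60 min, against 403, 421 and 533 CPM before wounding. The 30 min libraries overlapped those from before wounding, and the 60 min libraries all lay below them. The log2 change was -0.30 at 30 min (95% interval -0.68 to 0.08, edgeR adjusted p = 0.238) and -0.44 at 60 min (-0.82 to -0.05, adjusted p = 0.0757), and neither passed the threshold. The 60 min change passed it under 3 of 17 alternatives: with the 6 samples of the 2 times alone (adjusted p = 0.0466), without 30 min replicate 2 (0.0393) and with DESeq2 (0.0374). APX2, a cytosolic enzyme known for its induction by high light and heat, had 0 counts in all 9 libraries and was not tested. A count of 0 allows up to 3 counts, or 0.114 to 0.209 CPM depending on the library, for counting error only. Of 3 heat-response genes set beside APX2, HSFA2, a heat shock factor that is known to activate it, was at most 0.680 CPM and not tested, and the chaperones HSP90.1 and HSP101 were tested and not called by edgeR or DESeq2 (1 had an unadjusted p under 0.05, at 60 min). Of the 6 other ascorbate peroxidase genes, all tested, none rose, 1 fell at 30 min and 2 fell at 60 min. The share called was 16.7% and 33.3%, against 28% and 32.4% of all tested genes. Their median log2 change was 0.13 and -0.25. SAPX, the stromal enzyme, fell at both times, with log2 changes of -0.98 and -0.74 (adjusted p = 0.000443 and 0.00264). APX3, of the peroxisomal membrane, changed by -0.39 at 60 min (adjusted p = 0.0305), a call lost under 8 of 17 alternatives, among them without any 1 of the 3 before-wounding libraries (0.0611, 0.117 and 0.0634) or without 60 min replicate 1 or 2 (0.0615 and 0.0983).

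DHAR1 reduces dehydroascorbate to ascorbate with glutathione. It had 132, 131 and 187 CPM at 30 min and 186, 201 and 198 CPM at 60 min, against 33.6, 44.2 and 32.5 CPM before wounding. All 6 later libraries lay far above the 3 from before wounding, and 30 min replicate 3 lay within the 60 min range. On the log2 scale the change was 2.03 at 30 min (SE 0.18, 95% interval 1.65 to 2.41, edgeR adjusted p = 2.61e-06) and 2.41 at 60 min (2.02 to 2.79, adjusted p = 6.35e-07), and both rises held under 17 of 17 alternatives. At 60 min against 30 min the log2 change was 0.38 (95% interval 0.02 to 0.74), with an unadjusted p of 0.0414 and an adjusted p of 0.370.

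Among the 3 dehydroascorbate reductases the order changed. Per kb of exon, DHAR3, the chloroplast enzyme, averaged 149, 124 and 110.2 CPM at 0, 30 and 60 min. DHAR1 averaged 40.3, 164 and 214, and DHAR2 4.77, 4.72 and 5.35. DHAR1 thus made up 55.8% of the family sum at 30 min and 64.9% at 60 min, against 20.7% before wounding. DHAR3 changed by -0.43 at 60 min (adjusted p = 0.0186, but 0.0825 and 0.0674 on leaving out before-wounding replicate 2 or 3 and 0.0643 without 60 min replicate 2) and had a log2 change of -0.27 at 30 min (adjusted p = 0.137), and DHAR2 was called at neither time. The DHAR1 share at 30 min was 51.5% to 63.7% in single libraries, against 18.5% to 23.3% before wounding.

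Some DHAR1 reads could have been counted elsewhere, since 84.6% of its 50-base stretches were found in no other gene. The rest were shared with AT1G19550, a neighbour annotated as a glutathione S-transferase family protein, and with AT1G19540, which overlaps AT1G19550 on the opposite strand and is annotated as an NmrA-like family protein. AT1G19550 averaged 1.13 CPM at 30 min and 3.49 CPM at 60 min and had 0 counts in the 3 libraries from before wounding. AT1G19540 averaged 2.60 CPM at 30 min and 5.05 CPM at 60 min, against 0.214 CPM before wounding. Both were low beside the mean of 149.9 and 195 CPM of DHAR1 at these times.

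The window before DHAR1 is shown as that of the member with the largest rise, with capitals as above.
DHAR1 (TAIR10.1 chr1:6774524-6774773, minus strand): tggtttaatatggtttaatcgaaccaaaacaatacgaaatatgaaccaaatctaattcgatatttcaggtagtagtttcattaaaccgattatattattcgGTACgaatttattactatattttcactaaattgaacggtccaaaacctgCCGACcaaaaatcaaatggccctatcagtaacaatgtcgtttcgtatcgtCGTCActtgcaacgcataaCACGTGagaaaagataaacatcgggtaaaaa
It holds a G-box 31 bases and an as-1 core 50 bases before the start, found in 6.58% and 18.6% of all windows, a DRE core at 100 bases and a GTAC at 149 bases. The G-box is the core bound by many bZIP and bHLH factors, and the as-1 core by TGA factors. The window of APX2 also holds a G-box, and those of APX1 and CSD1 an as-1 core. Binding was not tested.

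Beside DHAR1, 8 of 9 monodehydroascorbate reductase, dehydroascorbate reductase and glutathione reductase genes were tested. None was called higher, 3 fell at 30 min and 4 fell at 60 min, with a median log2 change of -0.30 and -0.40. Of all tested genes, 14.5% rose and 13.4% fell at 30 min, and 17.1% rose and 15.3% fell at 60 min. Whether the absence of rises departs from these shares was not tested. All later libraries of MDAR2, a monodehydroascorbate reductase, lay above those from before wounding. Its log2 change was 0.36 at 30 min and 0.26 at 60 min, and it was called at neither time. MDAR4, a peroxisomal monodehydroascorbate reductase, averaged 93.4 ± 6.15 CPM at 30 min and 80.1 ± 7.61 at 60 min, against 168 ± 8.42 before wounding (SD, n = 3 each), with log2 changes of -0.85 and -1.07 (edgeR adjusted p = 0.000274 and 3.83e-05). GR1, the cytosolic glutathione reductase, averaged 24.2 ± 4.39 CPM at 30 min and 23.7 ± 3.81 at 60 min, against 47.3 ± 5.11 before wounding, 1.95-fold and 1.99-fold lower (adjusted p = 0.000946 and 0.000659). MDAR6, an organellar monodehydroascorbate reductase, changed by -0.79 at both times (adjusted p = 0.00136 and 0.00113). These calls of MDAR4, MDAR6 and GR1 held under 17 of 17 alternatives.

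VTC2 encodes GDP-L-galactose phosphorylase, the first committed and main controlling step of ascorbate synthesis, and its transcript is known to follow light. It had 49.3, 67.2 and 51.3 CPM at 30 min and 65.6, 64.5 and 53.1 CPM at 60 min, against 281, 290.0 and 290.0 CPM before wounding. The 3 libraries from before wounding were nearly equal, and every later library lay far below them. It changed on the log2 scale by -2.36 at 30 min (SE 0.16, 95% interval -2.69 to -2.02, edgeR adjusted p = 2.64e-07) and -2.23 at 60 min (-2.56 to -1.90, adjusted p = 4.15e-07), and both falls held under 17 of 17 alternatives. VTC2 ranked 161 from the largest fall among 17622 genes at 30 min and 231 at 60 min. At 60 min against 30 min the log2 change was 0.13 (95% interval -0.19 to 0.45, adjusted p = 0.821).

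VTC5, the second gene for the same enzyme, averaged 24.0 ± 3.48, 24.5 ± 1.52 and 24.7 ± 3.22 CPM at 0, 30 and 60 min (SD, n = 3 each). Its log2 change was 0.03 at 30 min (95% interval -0.31 to 0.38) and 0.04 at 60 min (-0.30 to 0.38). Per kb of exon, the sum of both genes was 38.0 ± 4.38 CPM at 30 min and 40.4 ± 3.69 at 60 min, against 143 ± 1.24 before wounding. VTC2 supplied 66.8% and 68.9% of it, against 91.5% before wounding.

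The window before VTC2 is shown as that of the member with the largest fall, with capitals as above.
VTC2 (TAIR10.1 chr4:13501702-13501951, minus strand): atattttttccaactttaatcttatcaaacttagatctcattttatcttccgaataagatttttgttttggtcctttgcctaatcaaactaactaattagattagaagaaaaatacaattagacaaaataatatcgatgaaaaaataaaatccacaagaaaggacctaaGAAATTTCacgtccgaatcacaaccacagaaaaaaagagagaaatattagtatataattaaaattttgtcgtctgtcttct
Its only match is a heat shock element 81 bases before the start, a motif found in 9.47% of all windows. The windows of APX1 and APX2 also hold this motif.

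Along the rest of the ascorbate route, 9 other genes were tested, of which 2 rose and 3 fell at 30 min and 2 rose and 3 fell at 60 min. The share called was 55.6% at each time, against 28% and 32.4% of all tested genes. The median log2 change of these genes was 0.03 and 0.04. PMI1, a phosphomannose isomerase at the start of the route, averaged 138 ± 5.94 CPM at 30 min and 145 ± 25.6 at 60 min, against 46.4 ± 2.62 before wounding (SD, n = 3 each), with log2 changes of 1.57 and 1.64 (edgeR adjusted p = 6.06e-06 and 3.61e-06). PMI2, the second isomerase, rose by 1.33 and 1.23 on the log2 scale (adjusted p = 0.0104 and 0.0137), and its 60 min call was lost on leaving out before-wounding replicate 3 (0.0583) or 60 min replicate 3 (0.0834). VTC4, the phosphatase that follows VTC2, averaged 38.6 ± 2.74 CPM at 30 min and 24.2 ± 3.77 at 60 min, against 68.7 ± 6.74 before wounding, with log2 changes of -0.83 and -1.50 (adjusted p = 0.00100 and 9.05e-06). The remaining falls, named like PMI2 after their values were seen, were smaller. GME, the epimerase before VTC2, changed by -0.45 and -0.49 (adjusted p = 0.0284 and 0.0172). PMM, the phosphomannomutase, changed by -0.42 and -0.55 (adjusted p = 0.0496 and 0.0115). At 30 min the call of GME was lost under 7 of 17 alternatives and that of PMM under 12, with adjusted p up to 0.165 for GME (without 30 min replicate 3) and, with 1 library left out, up to 0.143 for PMM (without 30 min replicate 2). At 60 min they were lost under 6 and 2, for GME with an adjusted p of 0.0574 and 0.0529 without replicate 1 or 3 from before wounding and 0.0583 and 0.0654 without replicate 1 or 2 from 60 min. Leaving out any 1 of the 6 libraries from before wounding and 30 min ended the call of PMM at 30 min except for 30 min replicate 3, and leaving out any but 30 min replicate 2 ended that of GME.

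**Figure D5:**
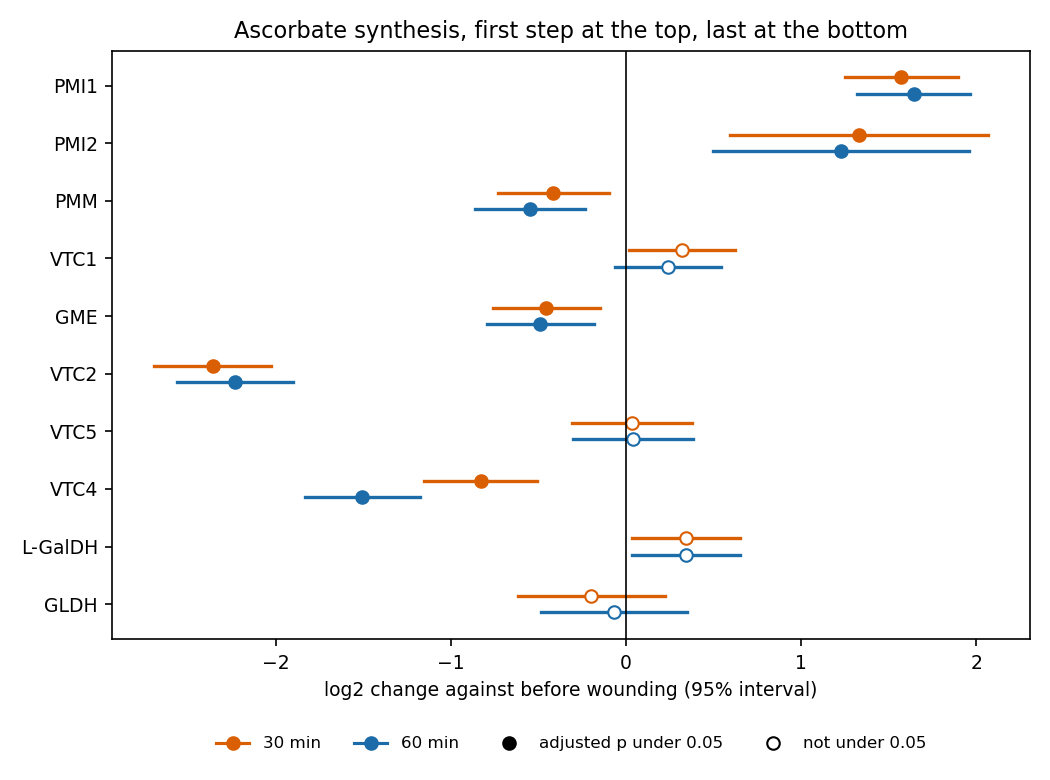
Log2 change of 10 genes of the ascorbate route (horizontal axis) at 30 min and 60 min, each against before wounding, from the first step at the top to the last at the bottom, with 95% intervals and filled points where the adjusted p was under 0.05. PMI1 and PMI2 lie above 0, VTC2 at -2.36 and -2.23 and VTC4 at -0.83 and -1.50 below it, and VTC5 at 0.03 and 0.04.

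GSH1, the glutamate-cysteine ligase that catalyses the rate-limiting step of glutathione synthesis, had 80.3, 81.8 and 92.1 CPM at 30 min and 85.0, 102 and 83.4 CPM at 60 min, against 79.9, 78.2 and 78.6 CPM before wounding. All later libraries lay just above the narrow range before wounding. The log2 change came to 0.10 at 30 min (95% interval -0.18 to 0.38, edgeR adjusted p = 0.600) and 0.19 at 60 min (-0.09 to 0.47, adjusted p = 0.286). GSH2, the glutathione synthetase of the next step, had 70.6, 64.0 and 86.2 CPM at 30 min and 69.5, 111 and 73.2 CPM at 60 min, against 50.5, 39.7 and 39.4 CPM before wounding. The libraries of each later time lay above those from before wounding, while the later times overlapped each other. GSH2 rose by 0.77 on the log2 scale at 30 min (95% interval 0.35 to 1.18, adjusted p = 0.00881) and by 0.97 at 60 min (0.55 to 1.38, adjusted p = 0.00177). Whether GSH2 changed more than GSH1 was not tested.

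Other peroxide-removing families were counted beside the members. The share of all tested genes called was 28% at 30 min and 32.4% at 60 min. Of 7 tested out of 8 glutathione peroxidase-like genes, 1 rose and 2 fell at each time, with a median log2 change of 0.02 and 0.04. GPX5 rose by 0.85 at 30 min and 0.88 at 60 min on the log2 scale (edgeR adjusted p = 0.000966 and 0.000657). The chloroplast GPX7 changed by -0.68 and -1.26 (adjusted p = 0.0299 and 0.000627), and its 30 min call was lost on leaving out before-wounding replicate 2 or 3 (0.0676 and 0.129) or 30 min replicate 1 or 3 (0.0956 and 0.114). Of 6 tested out of 8 peroxiredoxins (median log2 change -0.17 and -0.34), none was called at 30 min by edgeR or DESeq2, none had an unadjusted p under 0.05 there, and 1, the chloroplast PRXIIE, fell at 60 min (log2 change -0.78, adjusted p = 0.0181, but 0.0638 on leaving out before-wounding replicate 3 and 0.0600 without 60 min replicate 2).

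The 3 members that differed most among the times by the F test were VTC2, DHAR1 and CAT1, with ranks 40, 148 and 713 of 17622 genes. For each, the 2 genes most alike were found by the root mean square difference of log2 CPM over the 9 libraries after centring on the mean before wounding. Closest to VTC2 were AT5G63180, annotated as a pectin lyase-like protein (difference 0.179), and HYH, a homolog of the light-signalling factor HY5 (0.185), against a median of 1.93 over all tested genes. HYH averaged 2.76 CPM at 30 min and 2.80 at 60 min, against 15.9 before wounding. Closest to DHAR1 were TTL4, a tetratricopeptide-repeat thioredoxin-like gene (0.183), and TPS10, a trehalose phosphate synthase gene (0.192), against a median of 1.84. TPS10 averaged 75.7 CPM at 30 min and 83.6 at 60 min, against 16.3 before wounding. Closest to CAT1 were AT3G13430, a RING/U-box gene (0.0953), and PATL2, a patellin (0.0964), against a median of 1.01. Likeness over 9 libraries that share 3 times is a description, and the smallest differences lie below the median by construction.

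Of 3 guard cell markers, 2 also differed at 30 and 60 min from before wounding, against 28% and 32.4% of all tested genes. Their sum over all 3 ran from 48.4 to 54.2 CPM at 30 min and from 52.6 to 67.4 at 60 min, against 35.0 to 38.5 before wounding. FAMA and MYB60 rose at both times, FAMA by 1.37 and 1.41 on the log2 scale (edgeR adjusted p = 3.77e-05 and 2.73e-05), and KAT1 was called at neither. KAT1 changed by -0.32 at 30 min, with all 30 min libraries below those from before wounding (adjusted p = 0.169), and by -0.01 at 60 min (adjusted p = 0.975). The 30 min call of MYB60 (log2 change 0.73, adjusted p = 0.0230) was lost on leaving out before-wounding replicate 1 or 3 (0.0632 and 0.0918) or 30 min replicate 3 (0.0858). The part of guard cell or mesophyll levels in the changes of the members was not tested. Markers of phloem companion cells, epidermis, xylem and trichomes were not called at either time by edgeR or DESeq2, with no unadjusted p under 0.05. The flower markers summed to at most 1.21 CPM and the seed markers to at most 0.487 CPM.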

How the data were processed

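The authors deposited raw counts per gene in 1 table, as whole numbers that were not normalized. Per the submitters' processing notes, reads were handled with FastQC 0.11.8, Trimmomatic 0.36, HISAT2 2.2.0 and featureCounts on TAIR10. Per the labels, libraries were made from polyadenylated RNA with the TruSeq RNA kit. The annotation, read length and use of strand are not given in the sources used here, and multiply mapped or overlapping reads could shift counts between the neighbours named in the text. Library names in the labels matched each column to its sample, and 0 columns belonged to no sample.

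Genes were filtered with filterByExpr, which kept 17622 of 27206 genes and 99.96% of counts. They were tested in R 4.3.3 with edgeR 4.0.16 (TMM factors, glmQLFit, glmQLFTest, 1 fit to 9 samples, group as the only term), two-sided, with Benjamini-Hochberg adjustment over all tested genes and a threshold of 0.05. The SE of a log2 change was approximated from its size and its F statistic (size over root F). DESeq2 1.42.0 was an alternative. The common biological coefficient of variation was 0.217. Totals of 14300929 to 22970735 counts put 3 counts at 0.114 to 0.209 CPM. Exon lengths, coordinates, annotations and sequences came from the TAIR10.1 assembly with its RefSeq annotation. The edgeR fit was tested on simulated data that gave every gene the common coefficient of variation. Genes with a wider spread between replicates were thus not covered.

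Replicate numbers did not pair the libraries: deviations of same-numbered libraries correlated at -0.365 to 0.156, so no block was used.

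The members and gene lists were chosen with earlier results of these data known. All 10 members are named. From each related list, counts are given and the text names the 2 genes with the smallest F test p, or fewer (only PRXIIE for the peroxiredoxins). It also names some genes of the catalase, superoxide dismutase, ascorbate peroxidase, dehydroascorbate, monodehydroascorbate and glutathione reductase, VTC and GSH families. Genes of these families that were not called are mostly left unnamed. TOC1, CCS, PMI2, PMM, GME, GOX1, L-GalDH, GLDH, HSFA2 and the markers fall outside that rule and were named after their values were seen. L-GalDH and GLDH are shown only in the figure of the ascorbate route.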

Additional observations from a re-analysis of the deposited data

Results flagged for a closer look

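Between 60 and 30 min, 2 genes set beside the members moved further, by the test of that difference itself. They are given because they were called. VTC4 was 1 of 9 tested genes of its list and CCA1 1 of 3, and the other lists had no call. Tested in those lists were 5 superoxide dismutase, 3 copper, 6 ascorbate peroxidase, 8 recycling and 1 glutathione synthesis genes. To these come 7 glutathione peroxidase-like, 6 peroxiredoxin, 7 photorespiratory and 2 heat-response genes and 13 markers. Of all tested genes, 2.02% were called. VTC4, the phosphatase after VTC2 on the ascorbate route, had 25.5, 20.0 and 27.2 CPM at 60 min, against 38.2, 36.2 and 41.6 CPM at 30 min, a log2 change of -0.68 (edgeR adjusted p = 0.0337). The groups did not overlap, but the call was lost under 11 of 17 alternatives, among them with any 1 of the 30 min libraries left out (adjusted p = 0.113, 0.0630 and 0.0915), without 60 min replicate 1 or 2 (0.116 and 0.101) or without before-wounding replicate 2 or 3 (0.0712 and 0.0599). CCA1, the morning clock factor, had 12.0, 15.7 and 9.79 CPM at 60 min, against 21.2, 20.8 and 21.0 CPM at 30 min, a log2 change of -0.75 (adjusted p = 0.0399). That call was lost under 10 of 17 alternatives, among them without 30 min replicate 1 or 2 (0.129 and 0.0732), 60 min replicate 1 or 3 (0.171 and 0.0860) or before-wounding replicate 2 or 3 (0.0632 and 0.0528).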

How the results depend on the processing

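Under 17 alternatives no called member changed direction. Sign changes were counted only where a call was made. The number of members called at 30 min against before wounding was 5, fell to 3 with a threshold of 0.01 (fewer calls by construction), and ran from 3 to 6 with 1 library left out. At 60 min it was 6, against 4 to 7 with 1 library left out, and at 60 min against 30 min it was 0 in every alternative. With a replicate block, whose numbers did not pair the libraries (2 of 9 correlated best with a library of their own number), the counts were 4, 4 and 0, and CSD2 at 60 min was not called (adjusted p = 0.0697). With library size alone they were 5, 5 and 0, and with DESeq2 5, 6 and 0, where at 60 min CSD2 was not called (0.0976) and APX1 was (0.0374). The calls of VTC2, DHAR1 and CAT1 at both times and of CAT2 at 60 min held under all 17. Those of CAT2 at 30 min, CAT3 at both times and CSD2 at 60 min were lost under 6, 4, 6 and 9 of 17, and the cause was not tested. At 0 counts for APX2, depth limits what could be detected. With 3 libraries a group, changes as small as those of GSH1 were not resolved from 0.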
